A study of Neurospora crassa with 33 samples.

Results

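Ribosome profiling of *Neurospora crassa* strains without *cpc-3* was used to ask how host genes respond when a strongly expressed reporter is written in optimized rather than native codons. The libraries of ribosome-protected fragments (RPF) from Δ*cpc-3* hosts were chosen by their titles, 13 of the 25 RPF libraries and of 33 libraries in all. The Δ*cpc-3* mRNA-seq libraries, 1 per strain, and the 12 RPF libraries of hosts with an intact *cpc-3* (WT host) served for comparison. The 2 reporter entries (NCU05784) were left out of every host value, and 9729 host genes remained, of which 6640 had a mean of at least 1 TPM (a footprint level per length of coding sequence, scaled to the same total in every library) over the 13 libraries and were tested. The TPM given below were then centred on the median tested gene of each library, so their totals differ between libraries.

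All 4 Δ*cpc-3* strains carried the *cpc-3* knock-out and an N-terminally Flag-tagged EDP reporter, the coding sequence of NCU05784, driven by the *ccg-1* promoter and integrated at the *csr-1* locus. They differed in the number of tandem EDP repeats in the coding sequence of the reporter, 1 or 3, and in its codons, which were native (WT-EDP) or optimized (OPT-EDP). The 3× reporter is thus a longer coding sequence at the same locus, and copies or copy number below mean these repeats and not gene dosage. There were 4 RPF libraries of 1× WT-EDP and 3 each of 1× OPT-EDP, 3× WT-EDP and 3× OPT-EDP. Each strain is a homokaryotic transformant, and how many transformants stand behind a construct is not given in the sources used here. Differences between transformants and differences between codon versions thus cannot be told apart. The term codon effect below means the difference between OPT-EDP and WT-EDP strains. Mycelia were grown from conidia in liquid Vogel's medium with glucose under constant light, and cycloheximide was present at 0.1 mg/ml in the lysis buffer only. The study's methods call the replicates biological and the labels do not describe the cultures behind them, so p-values measure the spread between these libraries. Fewer footprints on an mRNA and fewer copies of the mRNA cannot be told apart in RPF levels alone.

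CPC-3 is the *Neurospora* homolog of GCN2, the kinase that phosphorylates the translation initiation factor eIF2α when uncharged tRNA accumulates. Phosphorylated eIF2α lowers initiation in general and raises translation of transcription factors of the cross-pathway control, such as CPC-1, the homolog of yeast GCN4, which turns on amino acid biosynthesis genes. *N. crassa* prefers codons that end in C or G, and rare codons slow elongation.

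The entry of the codon version named in the title was the higher of both reporter entries in 13 of 13 libraries. Footprints on *cpc-3* itself were at 0 to 0.103 TPM where it had been deleted and at 5.47 to 6.58 TPM in the WT host. Reads on host coding sequences, derived from the deposited interval bounds, ranged from 1223314 to 6959847 per library. Hyphal markers were high in every library, with *hex-1*, the Woronin body protein, at 1426 to 1915 TPM, *act* at 655 to 1011 TPM and the kinase gene *cot-1* at 40.9 to 49.7 TPM. Markers of conidia were mixed, since *con-13* was listed at 0 in all 13 libraries while *con-10* ranged from 2.59 to 30.9 TPM and *con-6* from 0 to 80.4 TPM. *con-8* and *eas*, from the same conidiation list, were high in every library, at levels given below. Of the mating genes, *matA-1*, *ccg-4*, *pre-2* and *fmf-1* were listed at 0 throughout, whereas *mfa-1* was high in some libraries and at 0 in others, as given below.

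Replicates 1 to 3 of 1× WT-EDP stood apart from replicate 4 of the same strain and from every other Δ*cpc-3* library. On the first principal component of log2 TPM, which held 29.4% of the variance, these 3 libraries lay at 21.2 to 36.2 and the other 10 at -12.7 to -5.91. The median absolute log2 difference over genes was 0.160 to 0.210 among replicates 1 to 3 and 0.299 to 0.354 between them and replicate 4. Replicate 4 differed from the 1× OPT-EDP libraries by 0.165 to 0.209, and from the 3× WT-EDP libraries by 0.180 to 0.208, against 0.115 to 0.167 among the 1× OPT-EDP libraries themselves. Replicate 3 of 3× OPT-EDP, the library with the fewest reads, stood apart on the second component (14.6% of the variance) at 37.3. The ratio of the deposited FPKM to the midpoint of its interval also split these libraries: for coding sequences of 3000 to 5000 nt it was 0.874 to 0.920 in replicates 1 to 3 of 1× WT-EDP and 0.685 to 0.762 in the other 10. In the 12 RPF libraries of the WT host it was 0.910 to 1.006. Differences at 1 copy and between hosts therefore set libraries of unlike ratio side by side. From midpoints the distance between replicate 4 and replicates 1 to 3 was still 0.262 to 0.328, against 0.180 to 0.223 among replicates 1 to 3. Results that involve 1× WT-EDP are therefore given with all 4 libraries, without replicate 4, and with replicate 4 alone.

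**Figure D1:**
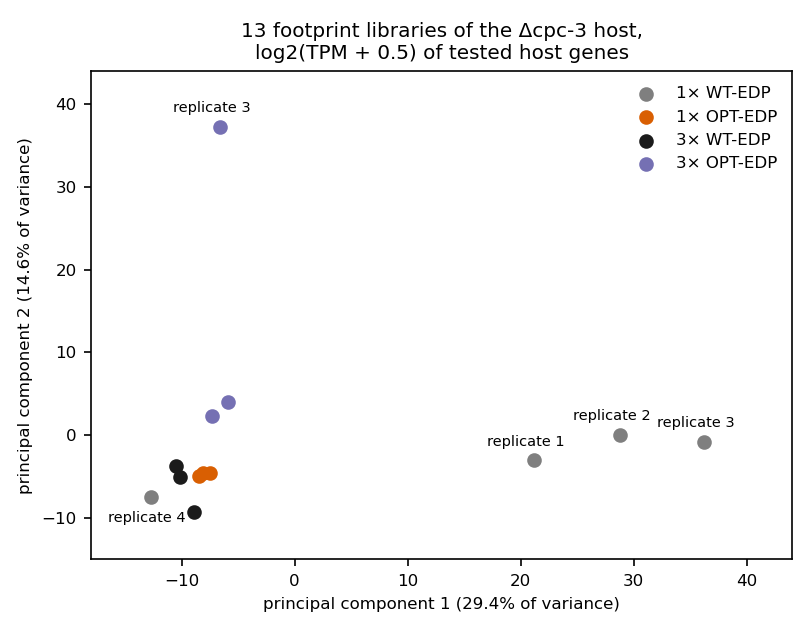
First (x axis) and second (y axis) principal component of log2 TPM over tested genes for the 13 Δcpc-3 RPF libraries, with the share of variance on each axis and 1 point per library, coloured by strain, with the replicate number beside the libraries of 1× WT-EDP and the 1 that stands apart in 3× OPT-EDP. Replicates 1 to 3 of 1× WT-EDP lie at 21.2 to 36.2 on the first component and replicate 4 lies with the other strains.

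The first comparison asked which host genes differed between OPT-EDP and WT-EDP strains when the differences at 1 and at 3 copies were averaged with equal weight. In all 17 genes passed the test, 4 higher and 13 lower with OPT-EDP, 0.256% of the genes tested (0.0602% higher and 0.196% lower; limma on log2(TPM + 0.5), Benjamini-Hochberg adjusted p under 0.05). The genes that rose were *eas*, *nit-10*, NCU11129 and NCU06366. Those that fell included *bli-4*, *con-8*, *asd-1*, *cat-1*, *mig-6* and NCU00322. The counts depended on the libraries that stood apart: without replicate 4 of 1× WT-EDP 1112 genes passed (16.7%), 365 of them higher (5.5%) and 747 lower (11.2%), with replicate 4 as the only 1× WT-EDP library 81 passed (1.22%), 23 higher (0.347%) and 58 lower (0.876%), and without any 1 of the other 12 libraries 0 to 3 passed. All 17 genes passed in the same direction without replicate 4, and 12 of 17 did with replicate 4 alone. On TPM that were not centred on the median gene, where the median of all genes shifted to -0.13, 55 genes passed (2 higher and 53 lower), so directions here are relative to the median gene.

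*eas*, which encodes the hydrophobin of the rodlet layer on conidia, had the largest rise. In the 3× strains it stood at 2436, 2338 and 2195 TPM with WT-EDP and at 6229, 5776 and 4855 TPM with OPT-EDP. In the 1× strains it stood at 2964, 2313, 2251 and 4432 TPM in replicates 1 to 4 of WT-EDP and at 4348, 4036 and 3883 TPM with OPT-EDP. The 3× groups did not overlap, whereas at 1 copy the fourth WT-EDP library was above all 3 OPT-EDP libraries. The averaged log2 difference was 0.89 ± 0.14 (SE; limma adjusted p = 0.0232). At 3 copies it was 1.27 ± 0.20 (limma adjusted p = 0.0264), and at 1 copy it was 0.51 ± 0.19 with all libraries (limma adjusted p = 0.145), 0.71 without replicate 4 (limma adjusted p = 0.000466) and -0.12 against replicate 4 alone (limma adjusted p = 0.856).

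*nit-10*, a nitrate transporter gene, rose through the 3× strains. Its level was 256.2, 240.3 and 253.6 TPM in 3× WT-EDP and 385.6, 381.2 and 371.2 TPM in 3× OPT-EDP. In 1× WT-EDP it was 330.4, 337.0, 346.5 and 319.3 TPM and in 1× OPT-EDP 320.1, 326.4 and 329.3 TPM, so that the 1× groups overlapped and all lay between the 3× groups. The averaged difference was 0.28 ± 0.04 and that at 3 copies 0.60 ± 0.06 (limma adjusted p = 0.0232 and 0.00309).

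NCU11129 moved alike at both copy numbers. It stood at 69.4, 67.1 and 69.9 TPM in 3× WT-EDP against 102.2, 105.0 and 100.5 TPM in 3× OPT-EDP, and at 66.0, 65.9, 65.4 and 86.9 TPM in 1× WT-EDP against 91.5, 87.7 and 88.2 TPM in 1× OPT-EDP. The groups did not overlap at either copy number, which the rule for named genes requires, although replicate 4 of 1× WT-EDP came within 1 TPM of the lowest 1× OPT-EDP library. The averaged log2 difference was 0.45 ± 0.07 (limma adjusted p = 0.0232). NCU06366, a lower gene at 10.3 to 18.2 TPM, differed by 0.48 ± 0.09 (limma adjusted p = 0.0425), and by a limma adjusted p of 0.12 when replicate 4 stood alone for 1× WT-EDP.

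*bli-4*, a gene first known for its induction by blue light, had the largest fall among genes above 5 TPM that met the rule for named genes. It stood at 35.8, 38.1, 35.5 and 20.7 TPM in 1× WT-EDP, 16.8, 18.0 and 20.0 TPM in 1× OPT-EDP, 18.1, 17.5 and 17.0 TPM in 3× WT-EDP and 10.3, 10.6 and 10.1 TPM in 3× OPT-EDP. OPT-EDP libraries were below WT-EDP libraries at both copy numbers with no overlap, a condition of that rule, by less than 1 TPM for replicate 4 at 1 copy. The averaged difference was -0.76 ± 0.13 (limma adjusted p = 0.0307), with -0.78 at 1 copy and -0.74 at 3 copies.

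*con-8*, a gene expressed during conidiation, stood at 1924, 1944, 1984 and 1543 TPM in 1× WT-EDP, 1390, 1396 and 1455 TPM in 1× OPT-EDP, 1295, 1332 and 1364 TPM in 3× WT-EDP and 1026, 1081 and 1086 TPM in 3× OPT-EDP. Neither pair of groups overlapped, which the rule for named genes requires. The averaged difference was -0.35 ± 0.06 (limma adjusted p = 0.0404), opposite in sign to that of *eas*, although both genes belong to the conidiation list.

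NCU00322 fell chiefly in the 3× strains, from 246.9, 243.9 and 248.1 TPM to 168.0, 152.8 and 138.5 TPM. At 1 copy it went from 294.5, 259.2, 306.7 and 310.5 TPM to 244.8, 234.1 and 243.5 TPM. The groups did not overlap at either copy number, again a condition of that rule. Its averaged difference was -0.48 ± 0.06 (limma adjusted p = 0.0188). *asd-1*, a rhamnogalacturonase gene required for ascus development, went from 23.3 to 29.8 TPM in 1× WT-EDP to 17.4 to 18.5 TPM in 1× OPT-EDP and from 17.4 to 18.9 TPM to 14.99 to 16.6 TPM at 3 copies. Its averaged difference of -0.38 ± 0.07 (limma adjusted p = 0.0422) did not pass with interval midpoints (0.12) or with replicate 4 alone (0.074).

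The other named falls were smaller than 0.50 on the log2 scale. NCU12084 differed by -0.49 ± 0.08, NCU07311 by -0.41 ± 0.07, NCU07405 by -0.36 ± 0.06 and NCU06940 by -0.29 ± 0.05 (limma adjusted p = 0.0232, 0.0403, 0.0357 and 0.0232). In all 4 the WT-EDP and OPT-EDP libraries did not overlap at either copy number, which the rule for named genes requires and which is therefore no added support. Such non-overlap at both copy numbers was found for 88 tested genes in the downward direction (1.33%) and for 27 in the upward direction (0.407%). Also called, but outside the rule for named genes, were NCU08223 (-1.10 ± 0.18, with levels of 1.08 to 6.07 TPM), NCU06364 (-0.77), NCU07474 (-0.47), *mig-6* (-0.31) and the catalase gene *cat-1* (-0.25). With interval midpoints the last pair differed by -0.11 and -0.08 and did not pass.

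**Figure D2:**
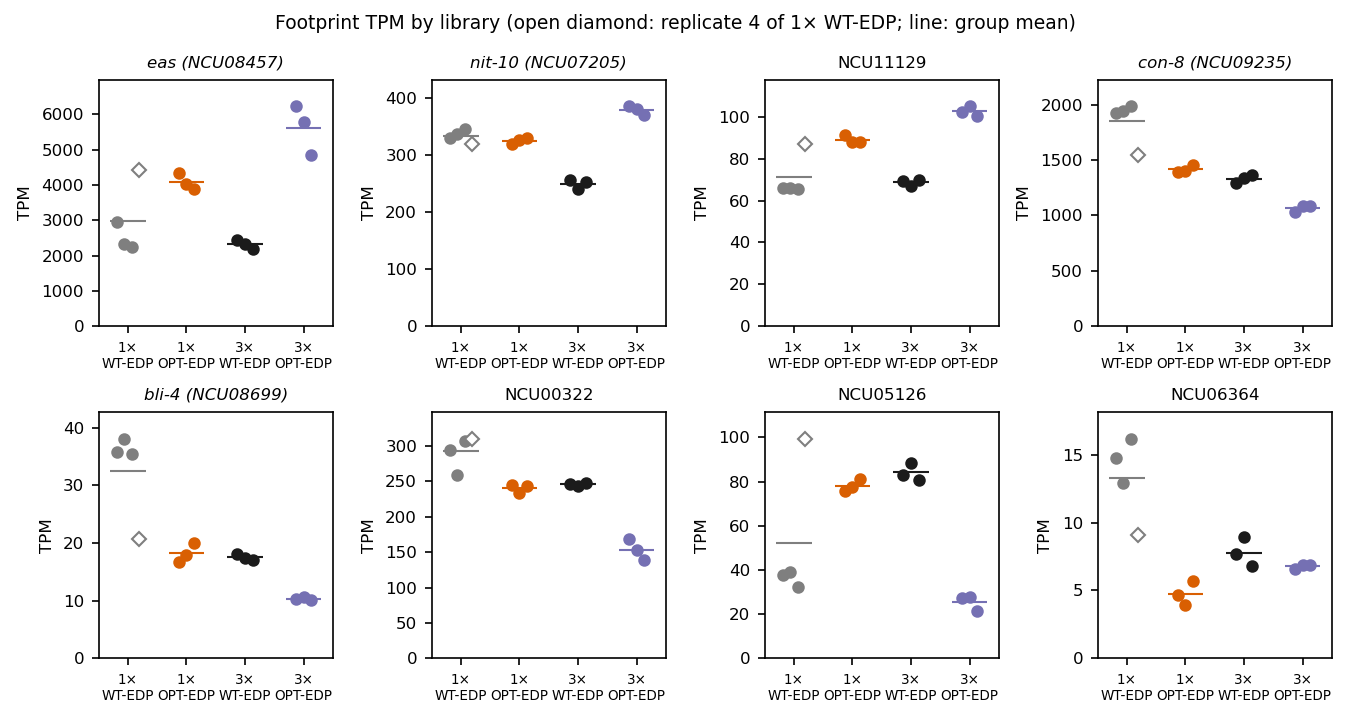
Levels of 8 genes (y axes, TPM, each from 0) in the 13 Δcpc-3 RPF libraries, grouped by strain on the x axis with 1 point per library, horizontal bars at group means and replicate 4 of 1× WT-EDP marked separately. eas, nit-10 and NCU11129 are higher in 3× OPT-EDP than in 3× WT-EDP, bli-4, con-8 and NCU00322 are lower with OPT-EDP at both copy numbers, NCU06364 is lower with OPT-EDP at 1 copy and NCU05126 at 3 copies.

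At 3 copies, where no library of 1× WT-EDP enters the difference, 30 genes passed, 11 higher and 19 lower in 3× OPT-EDP (0.452% of tested genes; 0.166% and 0.286%; limma). The libraries of 1× WT-EDP still enter the shared estimate of the spread, and a fit on the 3× strains alone called 136 genes (2.05%), 42 higher and 94 lower. Leaving out replicate 4 of 1× WT-EDP raised the count to 304 (4.58%), with 91 higher (1.37%) and 213 lower (3.21%). Leaving out replicates 1 to 3 raised it to 284 (4.29%), with 93 higher (1.41%) and 191 lower (2.89%). All 30 genes were called again in both cases. Leaving out any 1 of the 3× libraries left 2 to 7 genes, with 5 for replicate 3 of 3× OPT-EDP. On TPM without centring the split was 4 higher and 19 lower.

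By the rule for named genes, those higher in 3× OPT-EDP were led by NCU10276, *eas*, NCU02307 and *tim22*. NCU10276 stood at 3.80, 3.97 and 2.47 TPM in 3× WT-EDP and 8.81, 9.51 and 8.40 TPM in 3× OPT-EDP, a log2 difference of 1.29 ± 0.25 (limma adjusted p = 0.0404). NCU02307 stood at 7.24, 7.64 and 10.95 TPM against 14.2, 14.95 and 14.6 TPM, a difference of 0.75 ± 0.14 (limma adjusted p = 0.0404). *tim22*, a subunit of the protein translocase of the mitochondrial inner membrane, stood at 13.5, 15.1 and 14.6 TPM against 25.3, 19.2 and 27.6 TPM, a difference of 0.71 ± 0.13 (limma adjusted p = 0.0334). None of the 3 pairs of groups overlapped, which the rule for named genes requires, and non-overlap at 3 copies was found for 22.7% of tested genes.

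Among the genes lower in 3× OPT-EDP, NCU05126 had the largest fall. It stood at 83.1, 88.6 and 80.9 TPM in 3× WT-EDP and 27.1, 27.8 and 21.5 TPM in 3× OPT-EDP, a log2 difference of -1.71 ± 0.31 (limma adjusted p = 0.0334). NCU00873 went from 8.12, 6.99 and 9.37 TPM to 2.61, 2.60 and 2.55 TPM, a difference of -1.48 ± 0.27 (limma adjusted p = 0.0382). Both genes were more than 2-fold lower in every 3× OPT-EDP library than in any 3× WT-EDP library.

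NCU09420 (-1.24 ± 0.24) and NCU09356 (-1.15 ± 0.20) followed, with limma adjusted p of 0.0434 and 0.0334. *ccg-9*, the gene for trehalose synthase, went from 8.51, 9.39 and 8.71 TPM to 4.64, 3.99 and 4.46 TPM, a difference of -0.95 ± 0.16 (limma adjusted p = 0.0334). The 2 *ccg-9* groups did not overlap. The host copy of *ccg-1*, whose promoter drives the reporter, stood at 23476 to 24331 TPM in 3× WT-EDP and 16418 to 18295 TPM in 3× OPT-EDP, and its difference of -0.47 ± 0.12 did not pass with all 13 libraries (limma adjusted p = 0.13).

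At 1 copy 3 genes passed, all lower in 1× OPT-EDP (0.0452%; limma). NCU07815 stood at 11.5, 12.98, 11.6 and 10.3 TPM in 1× WT-EDP and 5.20, 3.43 and 3.34 TPM in 1× OPT-EDP, a log2 difference of -1.45 ± 0.16 (limma adjusted p = 0.00418). NCU06364 stood at 14.8, 12.9, 16.2 and 9.12 TPM against 4.68, 3.91 and 5.72 TPM, a difference of -1.37 ± 0.18 (limma adjusted p = 0.0166). *acw-9*, which encodes an anchored cell wall protein, stood at 45.6, 49.1, 42.0 and 48.5 TPM against 29.6, 31.4 and 28.0 TPM, a difference of -0.63 ± 0.09 (limma adjusted p = 0.0178) that did not pass with interval midpoints (0.083). In all 3 genes replicate 4 lay on the side of the other 1× WT-EDP libraries, which for NCU07815 and NCU06364 the rule for named genes requires. Non-overlap at 1 copy was found for 12.2% of tested genes.

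The small count at 1 copy went with the spread inside 1× WT-EDP. Without replicate 4 1758 genes passed (26.5%), 701 higher (10.6%) and 1057 lower (15.9%) in 1× OPT-EDP, and all 3 genes above were among them. With replicate 4 as the only 1× WT-EDP library 1 gene passed (0.0151%), and it was none of the 3. This gene, NCU00995, named after its values were seen, differed by -0.83 against replicate 4 and by 0.79 against replicates 1 to 3 (limma adjusted p = 0.0438 and 2.46e-06), so its direction turned with the library. Of 1750 genes called without replicate 4 that had a level in replicate 4, that library was closer to the 1× OPT-EDP mean than to the mean of replicates 1 to 3 in 1600. The sign of the difference against replicate 4 alone matched in 757 of these 1750 (43.3%), with a median absolute log2 difference of 0.13 against 0.52. These genes were picked because replicates 1 to 3 differed from 1× OPT-EDP, which raises the 0.52. A smaller value for the library left out of that choice is therefore no added support. The same measures were not taken over all tested genes. Uncentred TPM, on which the median of all genes was -0.23, called 883 genes with 27 higher and 856 lower, so that the number of genes lower in 1× OPT-EDP depends on the scaling as well as on replicate 4.

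The differences at 1 and 3 copies had little in common. Over the 6640 tested genes they correlated with r = -0.09 across genes, which are not independent replicates, and their signs matched in 47.7%. Of the 30 genes called at 3 copies 15 had the same sign at 1 copy. With replicate 4 as the only 1× WT-EDP library the correlation was 0.09 and 51.6% of signs matched, and of the 284 genes then called at 3 copies 166 had the same sign at 1 copy (58.5%).

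**Figure D3:**
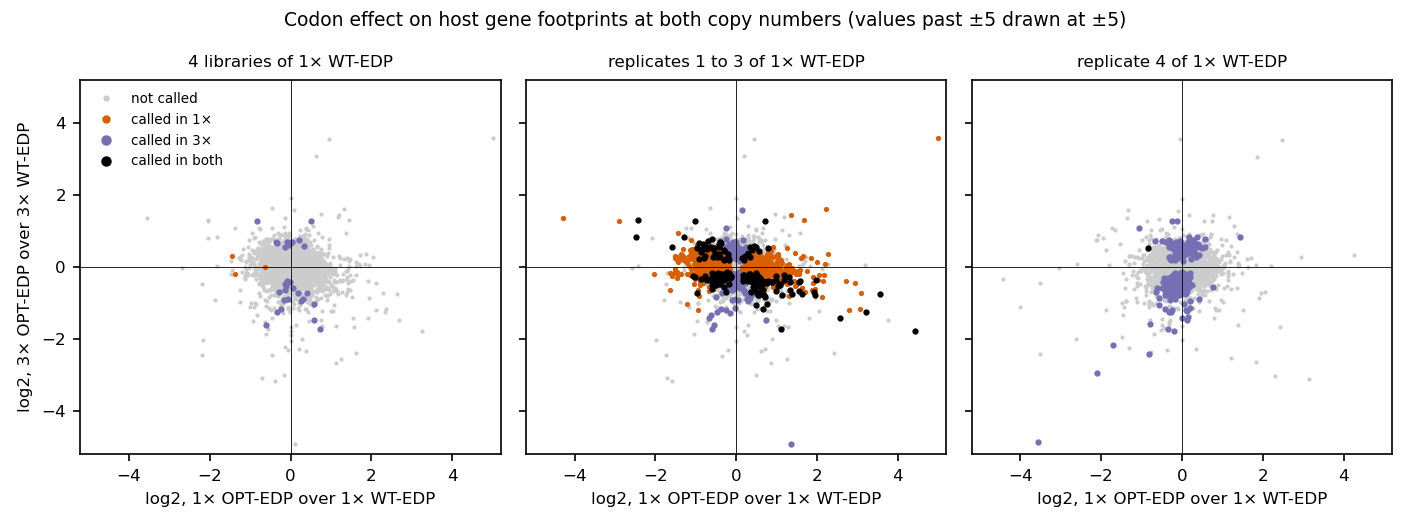
Log2 difference OPT-EDP minus WT-EDP at 1 copy (x axis) against that at 3 copies (y axis), 1 point per tested gene, with all 4 libraries of 1× WT-EDP, with replicates 1 to 3 and with replicate 4 alone. Colours mark genes called at 1 copy, at 3 copies or at both, and values past the axis limits are drawn at the limit. Signs matched for 47.7% of genes with all 4 libraries and for 51.6% with replicate 4 alone.

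The codon effect differed between 3 and 1 copies for 20 genes, 10 more positive and 10 more negative at 3 copies (0.301%; 0.151% in each direction; limma). The split on uncentred TPM was 17 and 6. Without replicate 4 1254 genes passed (18.9%), 725 more positive (10.9%) and 529 more negative (7.96%), and with replicate 4 alone 33 passed (0.499%), 14 (0.212%) and 19 (0.287%). All 20 were called again without replicate 4, and 4 of 20 with replicate 4 alone.

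NCU10276 differed most in the positive direction, by 2.11 ± 0.34 (limma adjusted p = 0.0347). In the 1× strains it stood at 6.94, 7.29, 8.43 and 4.21 TPM with WT-EDP and 2.54, 4.28 and 3.82 TPM with OPT-EDP, so that the order of the codon versions was opposite to that in the 3× strains, with replicate 4 within the range of 1× OPT-EDP. NCU07815 differed by 1.75 ± 0.23 (limma adjusted p = 0.0143), with 5.97, 6.66 and 5.76 TPM in 3× WT-EDP and 6.73, 7.12 and 9.30 TPM in 3× OPT-EDP. NCU09049 differed by 1.43 ± 0.20 (limma adjusted p = 0.0143): it stood at 43.9, 35.5, 37.6 and 37.6 TPM in 1× WT-EDP, 28.1, 24.0 and 19.7 TPM in 1× OPT-EDP, 28.7, 33.8 and 23.9 TPM in 3× WT-EDP and 46.3, 50.9 and 46.7 TPM in 3× OPT-EDP. Its groups overlapped at neither copy number, and replicate 4 was within the range of replicates 1 to 3.

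*ena-1*, a plasma membrane sodium pump, had high levels in replicates 1 to 3 of 1× WT-EDP (101.4, 96.6 and 89.1 TPM) and in 3× OPT-EDP (82.5, 79.4 and 79.5 TPM). Replicate 4 at 59.5 TPM was near 1× OPT-EDP (53.7, 55.0 and 52.1 TPM) and 3× WT-EDP (49.1, 54.8 and 51.7 TPM). The difference between the codon effects was 1.29 ± 0.21 (limma adjusted p = 0.0347). *nit-10* differed by 0.64 ± 0.09 (limma adjusted p = 0.0143), and its values in 1× WT-EDP did not turn on replicate 4.

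NCU05126 differed most in the negative direction, by -2.45 ± 0.42 (limma adjusted p = 0.0390). Its 1× WT-EDP levels were 37.7, 38.9, 32.5 and 99.5 TPM and its 1× OPT-EDP levels 75.6, 77.6 and 81.3 TPM, so replicates 1 to 3 and replicate 4 lay on opposite sides of 1× OPT-EDP. NCU00873 (-2.05), NCU05855 (-1.59 ± 0.25, limma adjusted p = 0.0311) and *ccg-9* (-1.21 ± 0.22, limma adjusted p = 0.0437) also fell more at 3 copies. NCU05855 stood at 10.6, 10.2, 9.94 and 17.0 TPM in 1× WT-EDP, 17.2, 19.5 and 16.2 TPM in 1× OPT-EDP, 19.7, 15.9 and 19.3 TPM in 3× WT-EDP and 7.98, 9.08 and 9.25 TPM in 3× OPT-EDP, with replicate 4 again among the 1× OPT-EDP values.

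Genes of translation and metabolism were then followed as lists. With all 13 libraries no gene of the lists of 72 cytosolic ribosomal proteins, 50 amino acid biosynthesis genes, 40 oxidative phosphorylation subunits, 7 chaperones and 8 glycolysis genes passed at 1 copy, at 3 copies or in the average. Their median log2 differences at 1 copy were -0.23, -0.28, -0.13, -0.55 and -0.34, against -0.01 for all tested genes, and at 3 copies -0.09, 0.02, 0.00, -0.02 and -0.11, against -0.02. At 1 copy 42, 22, 15, 6 and 7 of their members had an unadjusted limma p under 0.05, beside 1466 of all 6640 genes. At 3 copies 2, 1, 4, 0 and 1 did, beside 712 of all genes. The medians of the amino acid, chaperone and glycolysis lists at 1 copy rested on replicates 1 to 3 of 1× WT-EDP, where these lists were high relative to all other libraries including replicate 4.

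The chaperones showed this most plainly. Their median deviation from the gene means was 0.50 to 0.59 in replicates 1 to 3 of 1× WT-EDP, -0.26 in replicate 4 and -0.22 to -0.11 in the other strains, and their summed level was 1467 to 1524, 907 and 873 to 991 TPM respectively. *hsp80*, the Hsp90 homolog, stood at 279.7, 271.7, 276.7 and 146.3 TPM in 1× WT-EDP, 165.8, 159.9 and 157.3 TPM in 1× OPT-EDP, 149.3 to 153.1 TPM in 3× WT-EDP and 153.9 to 156.0 TPM in 3× OPT-EDP. *hsp70-2* stood at 219.4, 201.6, 209.6 and 99.4 TPM in 1× WT-EDP and 101.4 to 112.2 TPM in 1× OPT-EDP. Replicate 4 was below the 1× OPT-EDP libraries in both genes, and neither gene passed at 3 copies (0.03 and -0.02).

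Without replicate 4 all 7 chaperones were lower in 1× OPT-EDP, with a median of -0.78, and against replicate 4 alone limma called none, with 1 at an unadjusted p under 0.05 and a median of 0.09. Without replicate 4, 26.5% of all tested genes passed at 1 copy (15.9% lower), and 1082 of 6972 did from midpoints. The step between FPKM and interval midpoint moved with the same libraries. From midpoints and without replicate 4 the median was -0.04, with 1 chaperone higher and 1 lower, so the deposited FPKM and the midpoints of their own intervals disagree on these genes. In every library the widths of the narrower intervals, multiplied by length, were spaced by whole reads, and read depth was derived from these bounds. Which of the pair is nearer to the read counts per length was not tested against separate counts.

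Glycolysis and fermentation genes turned direction between the same measures. Without replicate 4 7 of 8 were lower in 1× OPT-EDP from FPKM (median -0.48), and 6 of 8 were higher from midpoints (median 0.16). Of all tested genes 15.9% were lower from FPKM, and 581 of 6972 were higher from midpoints. *gpd-1*, glyceraldehyde 3-phosphate dehydrogenase, stood at 8676, 8427, 8193 and 5594 TPM in 1× WT-EDP and 6111, 6026 and 5817 TPM in 1× OPT-EDP, with 5567 to 5642 TPM in 3× WT-EDP and 5067 to 5294 TPM in 3× OPT-EDP. The summed level of the list was 27223 to 27893 TPM in replicates 1 to 3, 19385 TPM in replicate 4, 19940 to 20538 TPM in 1× OPT-EDP, 19152 to 19359 TPM in 3× WT-EDP and 17330 to 18158 TPM in 3× OPT-EDP.

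Of the 50 amino acid biosynthesis genes, the targets of cross-pathway control, 29 were lower and 1 was higher in 1× OPT-EDP without replicate 4 (median -0.39). Of all tested genes 15.9% were lower and 10.6% higher there, and from midpoints 501 of 6972 were lower and 581 higher. Against replicate 4 alone limma called none, with 5 at an unadjusted p under 0.05 (median 0.07), and from midpoints without replicate 4 5 were higher and 6 lower (median -0.09). *arg-3*, a subunit of carbamoyl phosphate synthase in arginine synthesis, stood at 51.8, 54.9, 48.9 and 17.3 TPM in 1× WT-EDP and 19.5 to 21.5 TPM in 1× OPT-EDP. *ilv-2* of the isoleucine and valine pathway stood at 343.7, 361.4, 361.3 and 161.3 TPM and at 179.4 to 193.2 TPM. Both genes had replicate 4 below the 1× OPT-EDP libraries and replicates 1 to 3 well above them.

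*cpc-1*, the transcription factor of cross-pathway control, stood at 366 to 540 TPM over the 13 libraries and did not pass in the average (0.19, limma adjusted p = 0.17). *cpc-2*, the RACK1 homolog on the ribosome, stood at 377.0, 366.0, 324.8 and 218.3 TPM in 1× WT-EDP and 208.9 to 225.7 TPM in 1× OPT-EDP. Its difference at 1 copy was -0.53 with all libraries (limma adjusted p = 0.095) and -0.01 against replicate 4 alone.

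Cytosolic ribosomal protein genes were mostly lower from either measure. Without replicate 4 9 of 72 were higher and 41 lower in 1× OPT-EDP from FPKM (median -0.25), and 3 higher and 34 lower from midpoints (median -0.18). Beside these stand 10.6% higher and 15.9% lower of all tested genes from FPKM, and 581 higher and 501 lower of 6972 from midpoints. Against replicate 4 alone limma called none, with 24 at an unadjusted p under 0.05 and a median of -0.13. Members went both ways: NCU02744 stood at 503.4, 528.9, 468.2 and 231.5 TPM in 1× WT-EDP and 218.7 to 230.1 TPM in 1× OPT-EDP, while NCU06048 stood at 1617, 2138, 1247 and 4809.5 TPM and at 3888.5 to 4175 TPM. In both, replicate 4 was nearer to the 1× OPT-EDP libraries than to replicates 1 to 3.

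For oxidative phosphorylation 10 subunits were higher and 16 lower without replicate 4 at 1 copy, for the proteasome 6 of 14 were higher and 1 lower, and for the large subunit of the mitochondrial ribosome 1 of 22 was higher and 2 lower. These counts stand beside 26.5% of all tested genes called in that comparison. From midpoints without replicate 4 the counts were 3 higher and 10 lower, 5 higher and 1 lower, and 0 higher and 2 lower, beside 1082 of 6972 genes called. Against replicate 4 alone limma called no member of the 3 lists, with 14, 1 and 4 at an unadjusted p under 0.05.

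**Figure D4:**
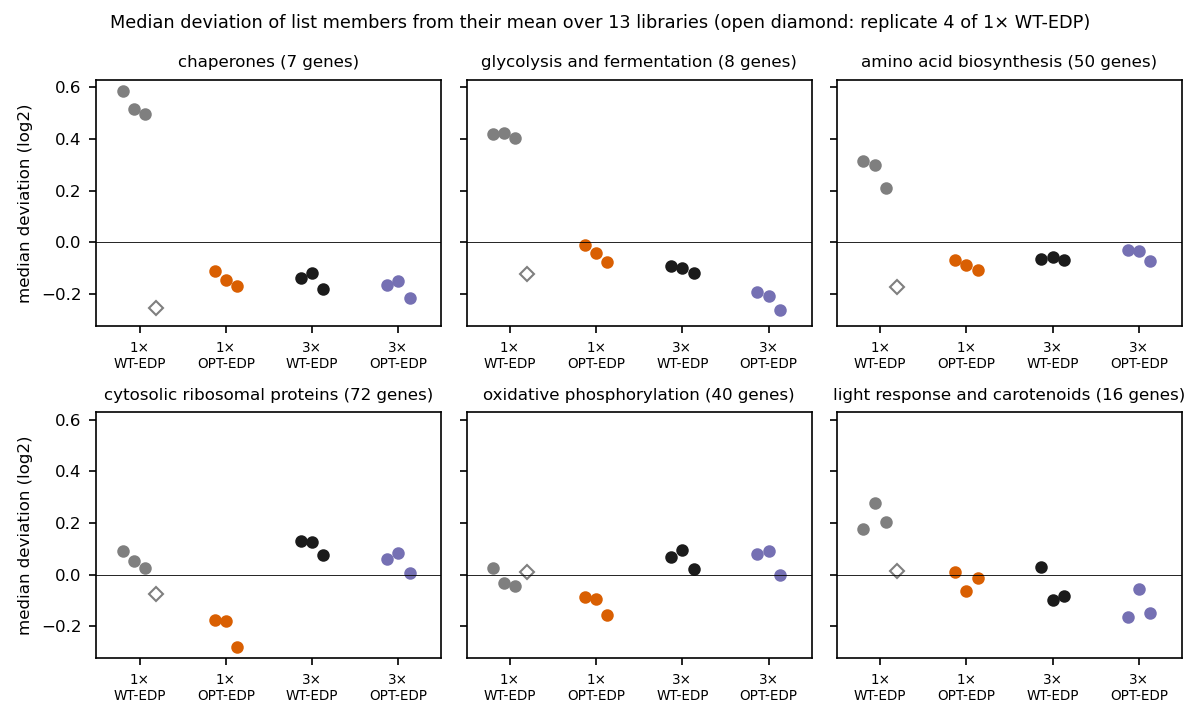
Median deviation from each gene's mean (y axis, log2) of 6 gene lists in the 13 Δcpc-3 RPF libraries, grouped by strain on the x axis with 1 point per library and list. The chaperone list lies at 0.50 to 0.59 in replicates 1 to 3 of 1× WT-EDP and at -0.26 in replicate 4.

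Among 16 genes of the light response and carotenoid synthesis *bli-4* alone passed in the average (median -0.11, against -0.02 for all tested genes). Without replicate 4 6 were lower and 1 higher at 1 copy, where 26.5% of all genes passed, among them the carotenoid genes *al-1* (-0.70) and *al-2* (-0.77), *bli-3* (-0.60) and the photolyase gene *phr* (-1.24). *al-2* stood at 147.8, 145.8, 140.3 and 83.4 TPM in 1× WT-EDP and 79.4 to 87.8 TPM in 1× OPT-EDP. *vvd*, the photoreceptor of light adaptation, was the member that was higher, by 0.13. From midpoints without replicate 4 7 were lower and 1 higher (median -0.22, against -0.19 from FPKM), beside 501 lower and 581 higher of 6972 genes. Against replicate 4 alone limma called none of the 16, with 2 at an unadjusted p under 0.05 (median -0.06).

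Of 17 conidiation genes *eas* rose and *con-8* fell in the average, and *eas* rose and *ccg-9* fell at 3 copies. *con-6*, a gene of late conidiation, stood at 44.1, 61.6, 80.4 and 7.52 TPM in 1× WT-EDP, 0, 8.02 and 6.58 TPM in 1× OPT-EDP, 3.58, 5.93 and 25.9 TPM in 3× WT-EDP and 10.3, 32.6 and 32.5 TPM in 3× OPT-EDP. *ccg-14* stood at 3379, 3233, 2932 and 7951 TPM in 1× WT-EDP and 5687 to 6436 TPM in 1× OPT-EDP. The summed level of the conidiation list, to which *ccg-1* gave 16175 to 24331 TPM, was 34196 to 35842 TPM in replicates 1 to 3 of 1× WT-EDP, 53108 TPM in replicate 4, 48914 to 50169 TPM in 1× OPT-EDP, 46986 to 48763 TPM in 3× WT-EDP and 39870 to 40365 TPM in 3× OPT-EDP, and its part in the other differences was not tested.

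Of 16 genes of nitrogen, sulfur and phosphorus acquisition *nit-10* alone passed in the average, and of 15 carbon source genes none did (limma, with 5 at an unadjusted p under 0.05). Without replicate 4 6 of the former were lower and 1 higher at 1 copy, and 5 of the latter were lower and 2 higher, where 26.5% of all genes passed. From midpoints without replicate 4 3 of the former were lower and 1 higher, and none of the latter was lower and 2 were higher, beside 1082 of 6972 genes called. Against replicate 4 alone limma called none of either list, with 3 and 1 at an unadjusted p under 0.05. *acu-6*, phosphoenolpyruvate carboxykinase, differed by -0.88 in that setting, and *cre-1*, the carbon catabolite repressor, was higher by 0.72. Against replicate 4 alone their differences were -0.17 and -0.05.

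The mRNA libraries of the same strains, 1 per strain and so without replicates, gave differences of their own. Among genes of at least 5 TPM of mRNA the footprint and mRNA differences had the same sign for 25 of 29 genes called at 3 copies (86.2%), against 57.3% of 5947 genes overall. For the average it was 14 of 16 called genes (87.5%) against 57.4%. At 1 copy without replicate 4 it was 1224 of 1704 called genes (71.8%) against 59.9%, whereas the differences against replicate 4 alone matched the mRNA in 50.6% of genes.

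NCU05126 had mRNA levels of 36.7 TPM in 1× WT-EDP, 95.4 TPM in 1× OPT-EDP, 90.6 TPM in 3× WT-EDP and 21.6 TPM in 3× OPT-EDP, log2 differences of 1.37 and -2.05 at 1 and 3 copies. The 1× WT-EDP mRNA library thus resembled replicates 1 to 3 in this gene and not replicate 4. NCU00322 was lower in the OPT-EDP mRNA at both copy numbers (-0.42 and -0.99), as were *bli-4* (-0.99 and -0.18), *con-8* (-0.58 and -0.14) and NCU06364 (-1.68 and -0.60). *eas* differed by -0.34 and 0.29, so the rise in its footprints at 3 copies, which was 1.27, was larger than that of its mRNA. *tim22* mRNA differed by -0.31 at 3 copies, opposite to its footprints.

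From deposited FPKM and without replicate 4, the median footprint differences at 1 copy were larger in size than those of mRNA for 4 lists. These were chaperones, glycolysis, amino acid biosynthesis and cytosolic ribosomal proteins, and the difference was smaller for oxidative phosphorylation (-0.17). The median mRNA differences there were -0.11 for chaperones, -0.07 for glycolysis, -0.13 for amino acid biosynthesis, -0.18 for cytosolic ribosomal proteins and -0.29 for oxidative phosphorylation, against 0.01 for 6123 genes with mRNA values. At 3 copies they were 0.03, -0.20, -0.04, -0.07 and -0.21, against -0.05. The order at 1 copy did not hold from midpoints without replicate 4. There the chaperone and amino acid medians were smaller in size than those of mRNA, and the glycolysis median was positive. For coding sequences of 3000 to 5000 nt the ratio of FPKM to midpoint was 0.998 to 1.000 in the mRNA libraries and 0.685 to 0.920 in the RPF libraries. Footprint and mRNA differences are thus not on a like measure.

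The same codon contrast was next set against that of the WT host in a fit over all 25 RPF libraries. The averaged effect differed between hosts for 215 of 6699 genes, 34 more positive and 181 more negative in Δ*cpc-3* (3.21%; 0.508% and 2.7%; limma). Without replicate 4 of 1× WT-EDP 768 genes passed (11.5%), 207 more positive (3.09%) and 561 more negative (8.37%). With replicate 4 alone 413 passed (6.17%), 153 more positive (2.28%) and 260 more negative (3.88%). These held 215 and 156 of the 215 genes. The libraries were treated as unpaired in these fits. With a block by replicate number, in which replicate 4 carries no weight, 837 passed, 219 more positive and 618 more negative. The split was 8 and 179 on uncentred TPM and 54 and 148 with interval midpoints. Of the 215 genes 147 were called again in the same direction on uncentred TPM and 142 with midpoints. Across 6596 genes tested in both hosts the averaged effects correlated with r = 0.01 and 50.7% of signs matched, and of the 17 genes called in Δ*cpc-3* 5 had the same sign in the WT host. At 1 copy r was 0.21 (56.4% of signs) and at 3 copies -0.10 (46.8%).

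The averaged effects on *eas* and *bli-4* had opposite signs in the hosts, which rested on the 1× strains of the WT host. On TPM centred over all 25 libraries, *eas* in the WT host stood at 1633 ± 83.6 TPM in 1× WT-EDP, 784 ± 45.5 TPM in 1× OPT-EDP, 861 ± 43.0 TPM in 3× WT-EDP and 1127 ± 15.004 TPM in 3× OPT-EDP (SD, n = 3), so it was lower with OPT-EDP at 1 copy (-1.06, limma adjusted p = 0.000387) and not at 3 copies (0.39, limma adjusted p = 1). Its averaged effect was -0.34 there and the difference between hosts was 1.22 ± 0.16 (limma adjusted p = 6.72e-05). *bli-4* stood at 18.8 ± 3.33, 29.0 ± 1.19, 25.3 ± 2.30 and 25.3 ± 1.17 TPM in the same order, an averaged effect of 0.31 and a difference between hosts of -1.07 ± 0.16 (limma adjusted p = 0.000255). *con-8* rose in the WT host by 0.41 (limma adjusted p = 0.0193) and fell in Δ*cpc-3*, a difference of -0.76 ± 0.13 (limma adjusted p = 0.00133).

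NCU06940, NCU07405 and NCU00322 rose with OPT-EDP in the WT host, by 0.63, 0.50 and 0.41 (limma adjusted p = 6.4e-06, 6.79e-05 and 0.00457), and fell in Δ*cpc-3*. The differences between hosts were -0.92, -0.86 and -0.89. *asd-1* likewise rose by 0.47 in the WT host (limma adjusted p = 0.000128), a difference of -0.86 ± 0.09. NCU11129 was higher in both hosts, by 0.45 in Δ*cpc-3* and 0.22 in the WT host, and the latter did not pass (limma adjusted p = 0.124).

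After NCU00312, NCU00855 had the largest difference between hosts among the named genes. It stood at 3.28, 97.7, 9.69 and 64.0 TPM on average in 1× WT-EDP, 1× OPT-EDP, 3× WT-EDP and 3× OPT-EDP of the WT host, an effect of 3.70 ± 0.30. In Δ*cpc-3* it ranged from 5.17 to 42.0 TPM in 1× WT-EDP, 17.6 to 30.4 TPM in 1× OPT-EDP, 22.9 to 34.8 TPM in 3× WT-EDP and 31.3 to 36.03 TPM in 3× OPT-EDP. The 1× groups overlapped in Δ*cpc-3*, and the difference between hosts was -3.23 ± 0.41 (limma adjusted p = 6.31e-05). NCU05126 rose by 1.15 in the WT host (limma adjusted p = 0.000283) and differed by -1.64 ± 0.23 between hosts. *ccg-9* rose there by 0.63 (limma adjusted p = 0.000397) and differed by -0.98 ± 0.13. NCU00312, listed at 0 in 8 of the 13 Δ*cpc-3* libraries, had a fitted difference of -4.93 that depends on the prior count.

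Genes more positive in Δ*cpc-3* included NCU02217 (1.96 ± 0.40), *lao*, the L-amino acid oxidase gene (1.15 ± 0.18), NCU07159 (0.90) and NCU00103 (0.54 ± 0.11), with limma adjusted p of 0.00592, 0.000681, 0.00968 and 0.00812. NCU00103 did not pass with interval midpoints (0.0521). *lao* fell by 0.87 on the log2 scale in the WT host, from 8.71 to 3.55 TPM at 1 copy and from 5.08 to 3.34 TPM at 3 copies, and stood at 1.46 to 2.86 TPM on average in the Δ*cpc-3* strains. The nitrate reductase gene *nit-3* was also more positive in Δ*cpc-3* (0.34, limma adjusted p = 0.0156).

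Among the named members of the glycolysis and carbon source lists, the alcohol dehydrogenase gene *adh-1* differed by -0.57 ± 0.11, the pyruvate decarboxylase gene *cfp* by -0.36, the glucose-6-phosphate isomerase gene *gpi-1* by -0.27, the invertase gene *inv* by -0.58 and *acu-6* by -0.62. For glycolysis and fermentation 3 of 8 genes were called, all more negative, beside 2.7% of all 6699 genes, with a median of -0.34 against -0.01. For carbon source genes it was 2 of 16, both more negative, with a median of -0.32. With interval midpoints these medians were -0.08 and -0.13, with 1 and 2 members called, and *cfp* and *gpi-1* differed by -0.19 and -0.02 and did not pass. With replicate 4 alone the medians were -0.17 and -0.13. The cryptochrome gene *cry* was also more negative (-0.44 ± 0.08). With all libraries none of 72 cytosolic ribosomal proteins, 50 amino acid biosynthesis genes or 7 chaperones was called by limma, with 6, 3 and 1 at an unadjusted p under 0.05, and their medians were 0.02, -0.09 and -0.17. Without replicate 4, where 11.5% of all genes passed, 4 of 7 chaperones were more negative (median -0.24), and 7 ribosomal proteins were more positive and 12 more negative (median 0.03). The chaperone median was 0.16 with interval midpoints, where 2 of 8 were more positive, and 0.06 with replicate 4 alone.

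Codon usage of the host genes themselves was related to the codon effect through the tRNA adaptation index (tAI), which scores how well the codons of a gene match the tRNA supply and was available for 3067 tested genes. Each library was given 1 value, the median log2 TPM of the third of genes with the highest tAI minus that of the third of genes with the lowest, 1022 genes each. It was 1.89, 1.91, 1.86 and 1.49 in 1× WT-EDP, 1.53, 1.53 and 1.46 in 1× OPT-EDP, 1.63, 1.60 and 1.58 in 3× WT-EDP and 1.55, 1.54 and 1.55 in 3× OPT-EDP. Replicates 1 to 3 of 1× WT-EDP were high and replicate 4 fell within the range of 1× OPT-EDP, while the 3× groups were close together without overlap.

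The averaged difference was -0.17, with -0.28 at 1 copy and -0.06 at 3 copies (exact permutation test within copy number over 700 arrangements, two-sided p = 0.037, smallest possible 0.00143). Without replicate 4 it was -0.22 (exact permutation p = 0.005). With replicate 4 as the only 1× WT-EDP library it was -0.021 (exact permutation p = 0.45), and with interval midpoints -0.014 (exact permutation p = 0.42), the average of -0.07 at 1 copy and 0.04 at 3 copies. The difference in levels between high and low tAI genes thus rested on replicates 1 to 3 of 1× WT-EDP and on the deposited FPKM. The same measure for the third of genes with the longest coding sequences against the third of genes with the shortest, 2213 genes each, was 0.01 (exact permutation p = 0.53). It was 0.053 with interval midpoints (exact permutation p = 0.17) and 0.046 with replicate 4 alone (exact permutation p = 0.20), and no length trend was detectable at this number of libraries.

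**Figure D5:**
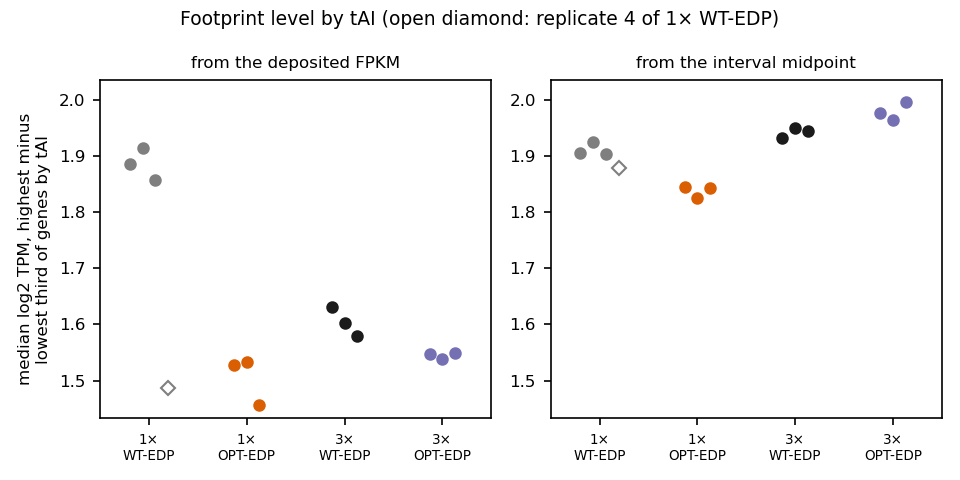
Median log2 TPM of the genes with the highest tAI minus that of the genes with the lowest (y axis) in each of the 13 Δcpc-3 RPF libraries, grouped by strain on the x axis, from deposited FPKM and from interval midpoints. From FPKM replicates 1 to 3 of 1× WT-EDP lie at 1.86 to 1.91 and replicate 4 at 1.49.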

How the data were processed

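RPF and mRNA reads had been mapped to coding sequences by the authors, who deposited FPKM (fragments per kilobase of coding sequence, scaled to library size, unpooled) with interval bounds in the layout of Cufflinks. Bowtie2 and Cufflinks are named in the submitters' processing notes, and versions, genome build and annotation are not given in the sources used here. The ratio of FPKM to the midpoint of its interval changed with CDS length by a step that these sources do not describe.

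FPKM without both NCU05784 entries were rescaled to TPM and centred on the median tested gene. log2(TPM + 0.5) of genes with a mean of at least 1 TPM was compared with limma 3.58.1 (trend, R 4.3.3) over the 4 Δ*cpc-3* strains, or over all 25 libraries for the difference between hosts, with Benjamini-Hochberg adjustment over all tested genes and calls at 0.05. Fold changes on this scale understate those of low genes. FPKM are not counts, so no count test was run, and reads derived from the interval bounds, whose spacing was a whole number of reads within 0.05, describe depth only. Python 3.11.15 with numpy 2.4.6, pandas 2.3.3 and matplotlib 3.10.9 did the rest.

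Named genes were the 12 largest rises and falls of the average that were also called from midpoints, did not overlap within either copy number and reached 5 TPM, with the 4 largest each way in the other contrasts and called members of 15 lists. The lists were written as symbols or locus tags. Only 8 of 26 chaperone keys and 8 of 22 glycolysis keys had an entry under the symbol used. Members and lists were chosen with earlier results of these data known. Names came from RefSeq (9728 of 9729 identifiers matched, 1118 with a symbol), and tAI values were available for 3102 genes. Alternatives were other pseudocounts and filters, no centring, midpoints, no trend, a block by replicate number, fits on fewer or more strains and leaving out each library in turn.

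In simulated data for the averaged contrast (6640 genes), 87 of 100 genes changed by a log2 of 1 and 97 of 100 changed by 2 were called, with 12 of 6440 unchanged genes. In a simulation without changed genes 1 of 6640 was called. These rates describe the simulated noise only, and whether they hold for the real libraries was not tested. In the real data, leaving out 1 library gave 0 to 1112 calls for the same contrast.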

Additional observations from a re-analysis of the deposited data

Results flagged for a closer look

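The 4 libraries of 1× WT-EDP were screened for a lone library, by the gap between the extreme library and its neighbour as a share of the whole range (Dixon's criterion, which chance meets in about 1 of 20 groups). For NCU00312 this share was 1, for NCU11129 0.967, *adh-1* 0.907, *bli-4* 0.884, *con-8* 0.878, NCU05855 0.875, NCU07405 0.854 and NCU05126 0.84, and in each of these genes replicate 4 was the library apart. Replicate 4 was also apart in the median level of glycolysis and fermentation genes (0.963), of chaperones (0.896) and in the tAI value of the library (0.867). Replicate 1 was apart for *inv* (0.866) and for the median level of the large subunit of the mitochondrial ribosome (0.934). Over all tested genes 710 of 6640 (10.7%) had a lone library in this strain, and it was replicate 4 in 508 of them.

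The codon effect differed between 3 and 1 copies, by a limma test of the difference itself, in NCU10276 (2.11), NCU07815 (1.75), NCU09049 (1.43), *ena-1* (1.29), *nit-10* (0.64), *ccg-9* (-1.21), NCU05855 (-1.59), NCU00873 (-2.05) and NCU05126 (-2.45), all on the log2 scale.

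The averaged codon effect differed between Δ*cpc-3* and the WT host, by the same kind of test, with more positive values in Δ*cpc-3* for NCU02217 (1.96), *eas* (1.22), *lao* (1.15), NCU07159 (0.90), NCU00103 (0.54) and *nit-3* (0.34). More negative values were found for NCU00312 (-4.93), NCU00855 (-3.23), NCU05126 (-1.64), NCU08223 (-1.60), *bli-4* (-1.07), *ccg-9* (-0.98), *asd-1* (-0.86), *con-8* (-0.76), *acu-6* (-0.62), *inv* (-0.58), *adh-1* (-0.57), *cry* (-0.44), *cfp* (-0.36) and *gpi-1* (-0.27).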

How the results depend on the processing

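Every count of calls depended on the libraries used, and most also on the measure. For the average, leaving out 1 library gave 0 to 1112 calls, the fit over both hosts 235, uncentred TPM 55, midpoints 38 and limma without a trend 0. At 1 copy the counts were 0 to 1758 on leaving out 1 library, 883 uncentred, 50 with midpoints and 0 in a fit on the 1× strains alone. At 3 copies they were 2 to 304, with 18 without a filter on low values, 49 with midpoints, 13 without a trend and 136 on the 3× strains alone. For the difference between copy numbers they were 0 to 1254, with 47 at a mean of at least 5 TPM, 50 with midpoints and 1 without a trend. For the difference between hosts they were 155 to 768.

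In alternatives chosen after seeing the data, replicate 4 as the only 1× WT-EDP library gave 81, 1, 284, 33 and 413 calls for the average, 1 copy, 3 copies, copy number and host, where the spread of the lone library is taken from the other groups. Midpoints without replicate 4 gave 468, 1082, 263 and 869 for the first 4 of these, and midpoints with replicate 4 alone 140, 14 and 264 for the first 3.

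The labels do not say that a replicate number marks a shared day or culture, and 2 of 18 same-numbered pairs correlated above 0.1 (r from -0.06 to 0.13), so the libraries were treated as unpaired. In 27 of 36 comparisons a library nevertheless matched its own number best, which is a hint from the data and not from the design. The WT host libraries also differed by number. For coding sequences of 3000 to 5000 nt, FPKM over midpoint was 1.003 to 1.006 in replicate 3 of its strains. It was 0.910 to 0.950 in replicates 1 and 2. Replicate 3 also had the fewest reads in every strain of both hosts. Whether a number marks a shared preparation was not tested. With a replicate block the counts were 1102, 1724, 300, 1243 and 837. Replicate 4, which has no partner of its number, then carries no weight in any contrast. The WT host has no replicate 4, and its calls also rose with the block. They went from 135 to 404 for the average, from 188 to 504 at 1 copy and from 13 to 60 at 3 copies. Counts that involve the WT host thus depend on whether replicate number is used.

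The tAI difference was -0.014 with midpoints, -0.13 at 5 TPM or more, -0.021 with replicate 4 alone, -0.019 with midpoints without replicate 4, and -0.22 to -0.15 on leaving out 1 library. With the replicate block it was -0.22 (exact permutation p = 0.031, the smallest possible). The length difference was 0.053 with midpoints, 0.046 with replicate 4 alone, -0.038 at 5 TPM or more and 0.00046 to 0.019 on leaving out 1 library. Over all settings, values of named genes kept their call in 1152 cases and lost it in 491, with no change of sign in a call, and list medians moved beyond the replicate spread in 34 of 375 cases. The causes were not tested.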

Other observations

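The gene at which the reporters were integrated, *csr-1*, had footprints at 6.75 to 21.7 TPM in 5 of the 13 Δ*cpc-3* libraries and at 0 to 0.653 TPM in the other 8. The 5 were replicates 2 and 3 of 1× WT-EDP (13.4 and 12.2 TPM), replicate 3 of 1× OPT-EDP (12.9 TPM), replicate 3 of 3× WT-EDP (21.7 TPM) and replicate 3 of 3× OPT-EDP (6.75 TPM). In the mRNA libraries of the same strains it stood at 41.9 to 148 TPM.

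*mfa-1*, which encodes a mating pheromone precursor, was listed at 0 in replicates 1 to 3 of 1× WT-EDP and in replicate 1 of 3× WT-EDP, and stood at 315 TPM in replicate 4 of 1× WT-EDP. It was 158, 332 and 542 TPM in 1× OPT-EDP, 247 and 536 TPM in replicates 2 and 3 of 3× WT-EDP and 288, 289 and 1358 TPM in 3× OPT-EDP. The mRNA libraries of the same strains held 545 to 1123 TPM, and all RPF libraries of the WT host listed it at 0, so an exact 0 in these files need not mean that the transcript was absent.

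A single short gene, NCU16635 with a coding sequence of 78 nt, held 23.4% to 38.4% of the summed FPKM of a Δ*cpc-3* RPF library, while it drew 0.0512% to 0.0956% of the reads derived from the interval bounds.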
